A study of Drosophila melanogaster with 3 samples.

Results

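A list of 45 genes of DNA replication and the cell cycle, given by symbol, was examined for where the CG13775 protein sits on their chromatin in Drosophila melanogaster embryos. All 45 symbols matched a protein-coding gene of the Ensembl BDGP6 annotation, out of 13968 protein-coding genes on the chromosome arms. Genes entered the list by name and not by a measured value, but the list was chosen with earlier results of these data known. The data come from chromatin immunoprecipitation and sequencing (ChIP-seq) with an anti-GFP antibody in a single group, transgenic embryos that carry CG13775 fused to GFP at its C terminus. The embryos were of both sexes, 0 to 24 hours old, and taken whole, so every value is an average over tissues and stages. The group holds biological replicates 1, 2 and 4. No untagged or input library was analysed here, and the labels name a possible control experiment without saying of what kind. Enrichment that does not need the tagged protein therefore cannot be told apart from binding. The number of copies of the tagged gene and the pooling of embryos are not given in the labels, and since the files hold called regions without reads, the depth of each library is unknown.

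Replication is licensed in G1 when the origin recognition complex (ORC), Cdc6 and Cdt1 load the MCM helicase onto DNA, and geminin prevents a second loading in the same cycle. Cyclin-dependent kinases (Cdks), each paired with a cyclin, then start S phase and mitosis, while other members of the same kinase family act on RNA polymerase II. E2F transcription factors with their partner Dp turn on many S-phase genes, and retinoblastoma proteins such as Rbf hold them back. The early embryo of the fly divides by rapid cycles of S phase and mitosis that run on maternal supplies, and string (stg) and the G1 regulators come to set the pace later.

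Binding at the starts of these genes was about as frequent as at other genes. A gene is called bound here when at least 1 of its transcription start sites (TSSs) has an optimal summit no more than 500 bp away. The optimal list holds the 5862 regions that passed the authors' irreproducible discovery rate (IDR) procedure. By this measure 14 of the 45 members were bound (31.1%; exact 95% interval 18.2 to 46.6), against 26.2% of all protein-coding genes. The interval covers counting error over genes only, and it spans the share of all genes. The median signal at the 14 bound members was 355, against 335 at all 3658 bound genes. Signal is the authors' value for a region of the pooled list, called on all 3 libraries together, and its scale is not stated. No test was run on the list, because the members were chosen with results of these data known.

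**Figure D1:**
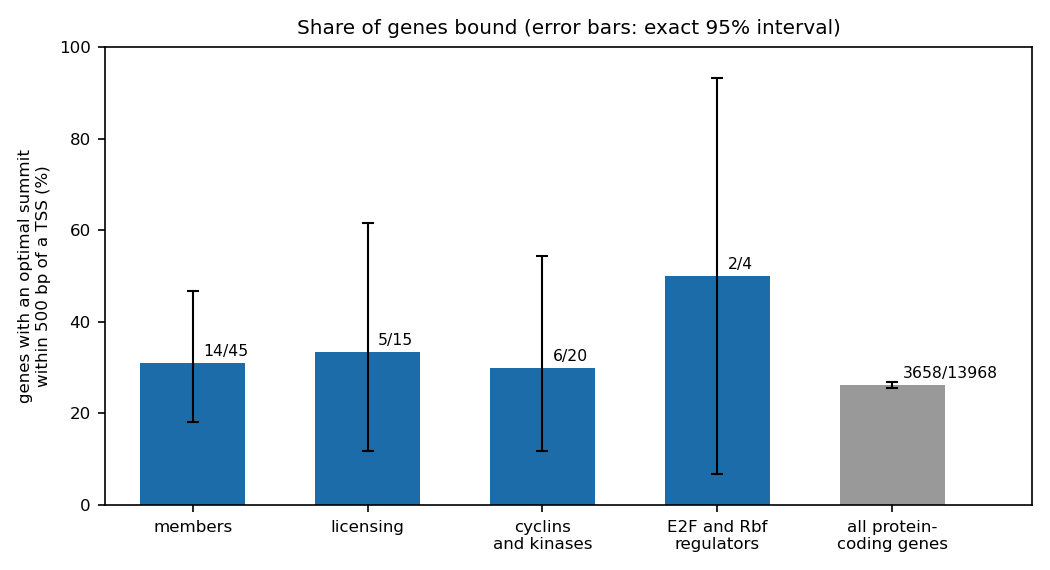
Percentage of genes counted as bound at a start, for all 45 members, for the licensing genes, the cyclins and kinases, and the E2F and Rbf regulators, and last for all protein-coding genes. Bars start at 0 and the error bars are exact 95% intervals; the intervals of the members (14 of 45) and of each role span the share of all genes (26.2%).

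The 3 roles with the most members had overlapping intervals. Of the licensing genes 5 of 15 were bound (33.3%, interval 11.8 to 61.6), of the cyclins and kinases 6 of 20 (30%, interval 11.9 to 54.3), and of the E2F and Rbf regulators 2 of 4 (50%, interval 6.76 to 93.2). The remaining bound gene, RnrS, is one of 3 genes for the fork and nucleotide supply. Neither of the 2 Cdc25 phosphatase genes, stg and twe, was bound, nor was dap. With so few genes per role, a difference between roles was not detectable.

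Regions of the pooled list, strong or weak, were common at the starts of the members. The pooled list is a relaxed one of 30000 regions that includes background. Of the 45 members 41 had a summit of it within 500 bp of a TSS (91.1%, exact interval 78.8 to 97.5). The share of all protein-coding genes was 54%, which this interval does not span. The 41 members include the 14 bound ones, and the share of all genes likewise includes bound genes, so neither counts weak regions alone. The median rank of a member's strongest region in that list was 7529, beyond the 5862 regions of the optimal list, and the median over all genes was 22671 with genes that had no region counted last. Orc4, Mcm3, RnrL and CycH had no pooled region near a TSS.

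**Figure D2:**
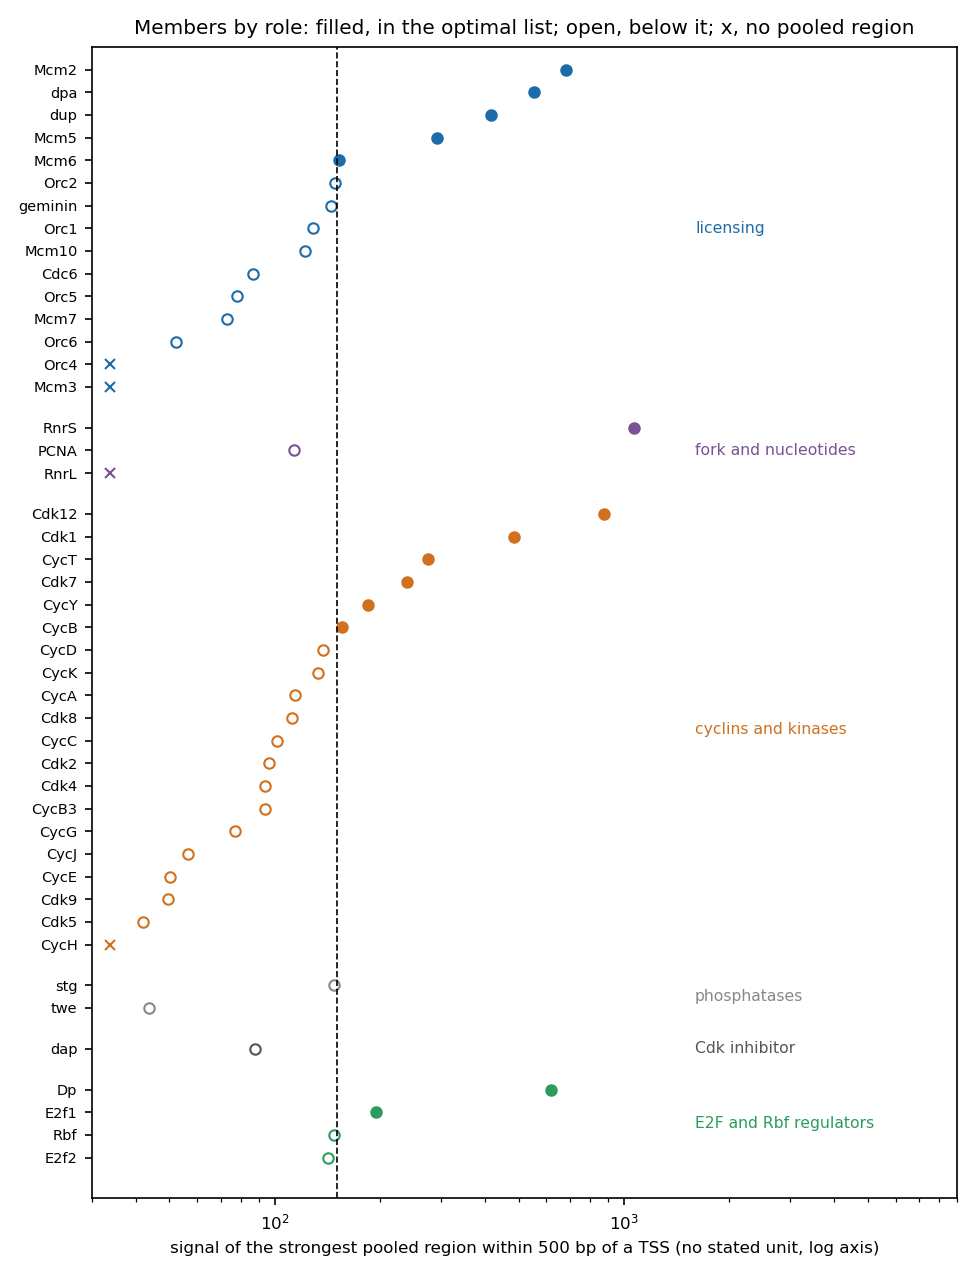
Signal of the strongest pooled region within 500 bp of a TSS of each member (log axis, no stated unit), grouped by role. Filled points are in the optimal list, open points are below its lowest signal (151, dashed line), and crosses at the left edge mark the 4 members with no pooled region; several open points lie just left of the line.

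Several members sat directly under the threshold. The lowest signal in the optimal list was 151. Mcm6 (153) and CycB (156) were the bound members nearest to it. Orc2 (149), stg (148), Rbf (148), geminin (145) and E2f2 (142) were the unbound ones nearest to it. If the pooled list is read 1.1 times as far, to 6448 regions, all 5 are added and 19 of 45 members count as bound (42.2%), against 28% of all protein-coding genes. The added regions reached 5 of 45 members (11.1%) and 247 of 13968 genes (1.77%). That extension was chosen after the values were seen and has no test.

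Most of the bound members were found by each library on its own. From each replicate's list only the 5862 strongest regions were kept, which is called its restricted list. Replicate 1 then gave 14 bound members of 45 (all genes, 25%), replicate 2 gave 16 (all genes, 25.5%) and replicate 4 gave 19 (all genes, 27.4%). The mean was 16.3 ± 2.52 members (SD, n = 3), or 36.3% ± 5.59, against 25.9% ± 1.27 of all protein-coding genes. A total of 10 members, 22.2% of the list, were bound in every one of the 3 restricted lists, against 20.4% of all genes. Those 10 are dup, Mcm2, dpa, Mcm5, RnrS, Cdk1, Cdk12, CycT, E2f1 and Dp.

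The other 4 bound members lacked support in at least 1 replicate. Mcm6 ranked 9406, 5236 and 5018 in replicates 1, 2 and 4, so replicate 1 left it out. CycY ranked 6979, 5166 and 4606, and was also missing from the restricted list of replicate 1. Cdk7 ranked 2742, 6792 and 3313, and replicate 2 left it out. CycB ranked 8013, 6840 and 6083 and was in none of the restricted lists, although its pooled region passed the IDR procedure.

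**Figure D3:**
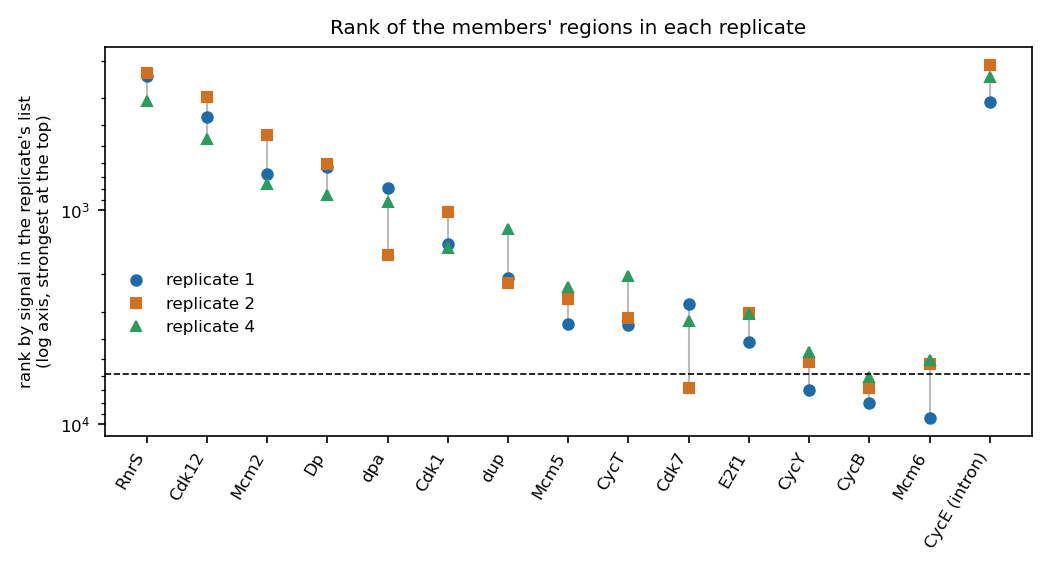
Rank by signal in each replicate's own list (log axis, strongest at the top) of the strongest region with a summit within 500 bp of a TSS of the 14 bound members, in order of pooled signal, and last of the strongest region that overlaps the intronic CycE peak. The dashed line marks rank 5862; Mcm6, CycY, Cdk7 and CycB have a point below it, and every point of the other 10 members and of CycE is above it.

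The bound licensing genes were Mcm2, dpa (the Mcm4 subunit), Mcm5, Mcm6 and dup. Of the 6 genes for the MCM2-7 helicase 4 were bound (66.7%, interval 22.3 to 95.7), against 26.2% of all protein-coding genes, a share that the interval spans. The gene Mcm2 (FBgn0014861) lies on the plus strand of 3R from 8264970 to 8267924. Its region was the strongest of the licensing genes with a signal of 684, and ranked 682, 448 and 758 in replicates 1, 2 and 4. Its summit at 8264869 (dm6) lay 101 bp upstream of the Mcm2 start and outside any annotated gene. It also lay 418 bp upstream of RPA1, the large subunit of the single-strand DNA-binding protein RPA, which is read from the other strand. This peak thus sat between a pair of replication genes.

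The region at dpa had a signal of 555 and ranked 789, 1634 and 923 in replicates 1, 2 and 4. Its summit (7499987 on 2R) fell in the annotated 5′ UTR of a dpa transcript, 110 bp upstream of the nearer start, with the start of didum (a myosin V gene) within 500 bp. At Mcm5 the signal was 292 and the ranks were 3421, 2610 and 2296. The Mcm5 summit (10788372 on 3R) lay 152 bp upstream of Mcm5 and 146 bp from the start of Art1, an arginine methyltransferase gene read the other way. Both genes share this region, and Art1 is the nearer one. Mcm6 on X had a signal of 153 with the start of CG3198 nearby.

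The other helicase genes were not bound. Mcm7 had a pooled signal of 73.0 and no region in replicate 1. Mcm3 had no pooled region near its start, and in the replicates only a region of rank 26150 in replicate 4. Mcm10, which acts when the helicase is activated, had a pooled signal of 122 at a summit that lies nearer to the start of bur.

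The gene dup encodes the loading factor Cdt1. At dup the signal was 417, with ranks of 2076, 2188 and 1227 in replicates 1, 2 and 4. The summit (15380729 on 2R) lay 115 bp upstream of the nearer dup start but 5 bp from the start of SRPK (a kinase gene for splicing factors), which is by far the nearer of the pair. Geminin (145), the inhibitor of Cdt1, stayed under the threshold, with ranks of 8738, 5539 and 6131, and Cdc6 had a pooled signal of 87.0.

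None of the 5 ORC genes among the members was bound (exact interval up to 52.2%), and this interval also spans the 26.2% of all protein-coding genes. Orc2 (149) and Orc1 (129) came closest. Orc2 and Orc1 ranked 4553 and 5537 in replicate 4, inside its restricted list. Orc2 ranked 19753 and 11695 in replicates 1 and 2, and Orc1 ranked 14884 and 7210. The replicates thus differed at these genes, and replicate 4 alone counted them as bound. Orc4 had no region near its start in the pooled or any replicate list. Orc5 (77.9) and Orc6 (52.0) had weak pooled regions.

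For the fork and the nucleotide supply, RnrS carried the strongest start region of all members. RnrS encodes the small subunit of ribonucleotide reductase, which makes the deoxynucleotides for replication. Its signal was 1069, rank 247 in the pooled list, and it ranked 237, 228 and 310 in replicates 1, 2 and 4. The summit (11985565 on 2R) lay 172 bp upstream of the RnrS start, and CG34231 starts within 500 bp of it. A second optimal summit lay 372 bp upstream with a signal of 270. The large subunit gene RnrL, needed for the same enzyme, had no region near its start in the pooled or any replicate list. The sliding clamp gene PCNA had a pooled signal of 114 and ranked 5664, 7415 and 12967, so only replicate 1 counted it as bound.

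Among the kinases, the genes bound were Cdk12, Cdk1 and Cdk7, and each shares its region with a divergent neighbour. Cdk12 phosphorylates the tail of RNA polymerase II. Its region had a signal of 878 and ranked 369, 296 and 467 in replicates 1, 2 and 4. The summit (21516107 on 3L) lay 199 bp upstream of Cdk12 (FBgn0037093), with the start of SAK, the Polo-like kinase of centriole duplication, within 500 bp. A second, weaker optimal summit (159) lay 240 bp upstream of an internal Cdk12 start. The regions overlapping it ranked 4793, 4983 and 6359, so replicate 4 left it out of its restricted list.

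Cdk1, the kinase of mitotic entry, had a signal of 486 and ranked 1445, 1022 and 1515. Its summit (10386449 on 2L) lay 187 bp upstream of Cdk1 and near the start of mRpS7, a mitochondrial ribosomal protein gene. Cdk7, the kinase of TFIIH and the activator of other Cdks, had a signal of 239. The Cdk7 summit (5309170 on X) also lay 187 bp upstream, but only 72 bp from the start of snf, a spliceosome gene.

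Cdk8 (112), Cdk2 (96.2), Cdk4 (94.1), Cdk9 (49.6) and Cdk5 (41.9) were below the threshold at their starts. Cdk8 belongs to the Mediator complex, Cdk2 and Cdk4 work with CycE and CycD, and Cdk9 is the kinase of P-TEFb. Replicates 1 and 2 held no region near the starts of Cdk9 and Cdk5.

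Of the 12 cyclin genes CycT, CycY and CycB were bound (25%), close to the 26.2% of all protein-coding genes. CycT, the P-TEFb cyclin, had a signal of 275 and ranked 3465, 3199 and 2047 in replicates 1, 2 and 4. Its summit (17557656 on 3L) lay 132 bp downstream of the start, in the 5′ UTR. CycY (185) and CycB (156), a mitotic cyclin, had their summits 225 bp and 108 bp upstream. No other gene starts within 500 bp of these 3 summits, so each is a peak of the member alone.

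The unbound cyclins ranged from CycD (138) and CycK (133) to CycA (115), CycC (102), CycB3 (94.0), CycG (76.8), CycJ (56.5) and CycE (50.1). CycH, the partner of Cdk7, had no pooled region near its start, and only replicate 2 placed one there, at rank 5830 within its restricted list. CycK, the partner of Cdk12, ranked 4832, 5732 and 15188 in replicates 1, 2 and 4, so replicates 1 and 2 counted it as bound although its pooled region was below the threshold.

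The strongest region inside any member gene lay in CycE and was missed by the distance of 500 bp. CycE drives entry into S phase. Its intronic peak (15746872 to 15747148 on 2L, summit 15747131, dm6) had a signal of 1061, rank 255 in the pooled list. The strongest overlapping regions ranked 313, 209 and 239 in replicates 1, 2 and 4. The summit lay 521 bp upstream of an internal CycE start and in an intron of the gene. A neighbouring optimal summit (417) lay 721 bp upstream of the same start. Its strongest overlapping region ranked 493 in replicate 1 and was that of the main peak in replicate 2 (rank 209). Replicate 4 had no region overlapping it. For the main peak, the summit in replicate 1 fell 61 bp from the pooled one and within 500 bp of the start. That replicate alone thus counts CycE as bound.

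Summits at similar distances were found at 2 further unbound members. Cdk4, the G1 kinase, had an optimal summit 560 bp upstream of its first start (314). The gene dap, which encodes a Cdk inhibitor of the p21 and p27 kind, had one 545 bp upstream (178). At its own start dap had a pooled region of 88.1. With 1000 bp allowed, CycE, Cdk4 and dap are added and 17 of 45 members are bound (37.8%), against 29.3% of all genes.

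Counting gene bodies, 9 of 45 members had an optimal summit inside the gene (20%), against 13.6% of all protein-coding genes. They are dup, dpa, Cdk4, Cdk12, CycE, CycG, CycT, E2f1 and Dp. Longer genes have more room for a summit, and the median gene length was 2855 bp for the members and 2164.5 bp for all genes. The part of gene length in these counts was not tested. Either at a start or inside the gene, 17 members (37.8%) held an optimal summit, against 30.8% of all genes. The members that this adds to the 14 are Cdk4 (153), CycE (1061) and CycG (165), each with its strongest inner summit in an intron. Replicate support was weaker at Cdk4 and CycG. Only replicate 4 had a region overlapping that Cdk4 peak (rank 3177). Another optimal summit inside Cdk4 had a signal of 152. The regions overlapping it ranked 4734, 4704 and 9505 in replicates 1, 2 and 4, so replicate 4 left it out of its restricted list. The regions overlapping the CycG peak ranked 8676, 5899 and 5332 in replicates 1, 2 and 4, so replicates 1 and 2 left it out of their restricted lists.

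**Figure D4:**
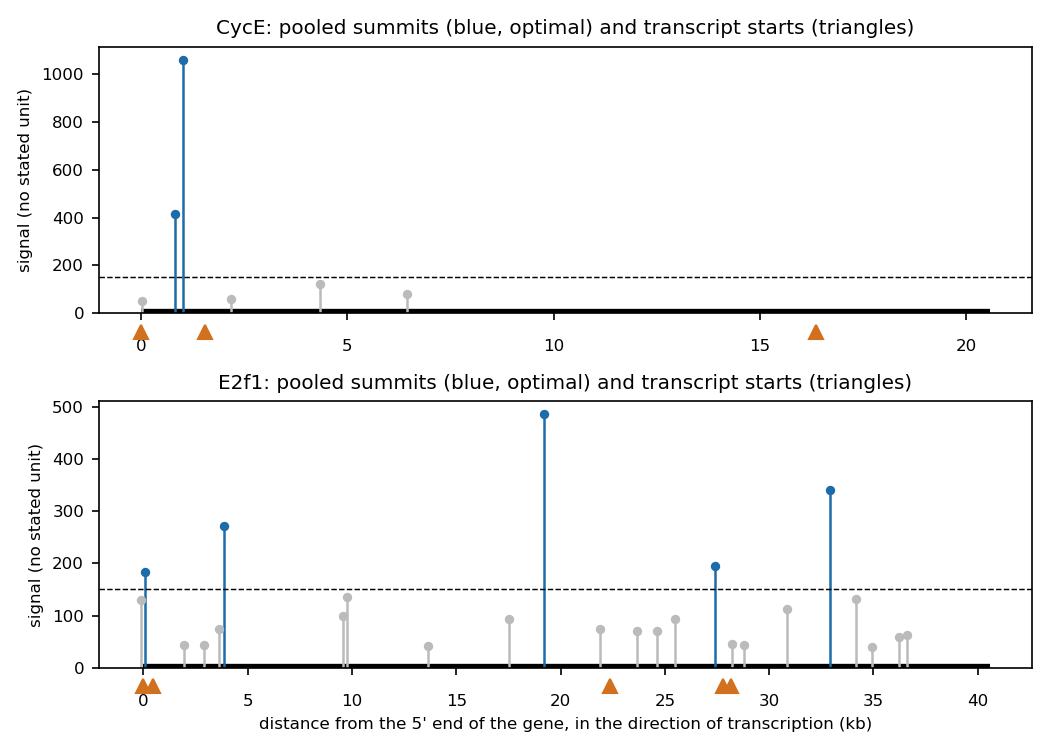
Pooled summits along CycE and E2f1 as distance from the 5′ end of the gene in kb, with signal on a linear axis that starts at 0. Blue stems are optimal peaks, grey stems are pooled regions below the lowest optimal signal (dashed line), the black bar is the gene and triangles are transcript starts; the CycE peaks stand between its first starts, and the E2f1 peaks are spread over the gene.

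E2f1 and Dp, which form the activating E2F dimer, were bound, and E2f2 and Rbf fell just short. E2f1 is by far the longest member, at 40568 bp on 3R, and held several peaks. The strongest (487, summit 21641670) lay in an intron 3176 bp upstream of the nearest E2f1 start and ranked 2019, 1465 and 904 in replicates 1, 2 and 4. Another 2 inner summits had signals of 341 and 272. The start regions were weaker, at 195 for an internal start and 184 for the start at the 5′ end. At that 5′ start the overlapping regions ranked 6617, 19896 and 3059 in replicates 1, 2 and 4, so only replicate 4 held it in its restricted list.

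At Dp 3 optimal summits lay within 500 bp of a start. The first 2 were nearly equal in signal, at 620 and 616. The stronger one ranked 633, 882 and 847 in replicates 1, 2 and 4 and the other ranked 671, 611 and 869, so their order changed between libraries. The stronger summit (13224054 on 2R) lay 463 bp inside the gene from a Dp start and 408 bp from lncRNA:CR43918. The other lay 245 bp upstream of the same start. The third had a signal of 269.

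Rbf, the retinoblastoma protein gene, had a pooled signal of 148 at a summit 37 bp upstream, and E2f2, the repressive E2F, had 142. Rbf ranked 7353, 8714 and 4680 in replicates 1, 2 and 4. E2f2 ranked 7843, 6021 and 6785, and its summit lies nearer to the divergent gene Mpp6. Both count as bound in the list 1.1 times as long. The Cdc25 phosphatase gene stg, which triggers mitosis in the later embryonic cycles, also had 148 in the pooled list, with ranks of 6669, 22887 and 5204. The other Cdc25 gene, twe, used mainly in the germ line, had 43.6.

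**Figure D5:**
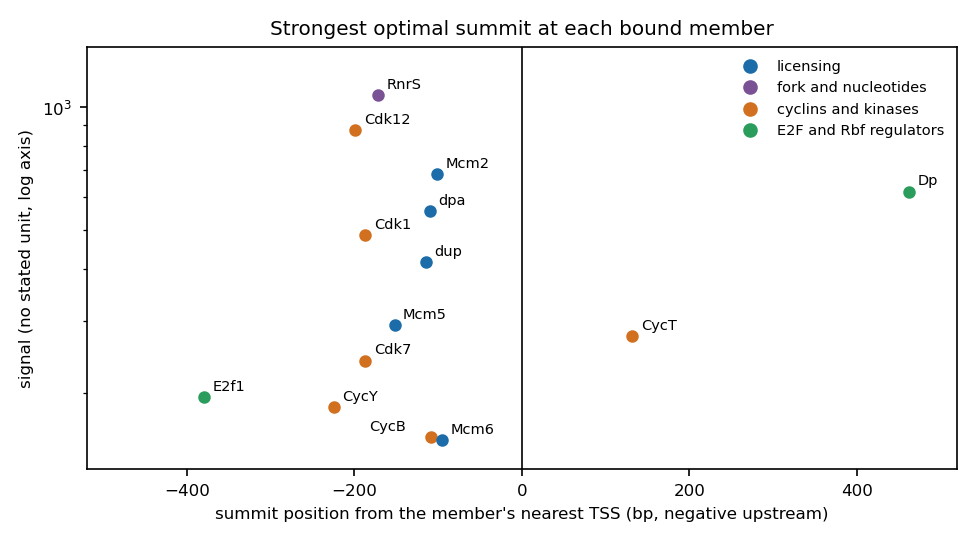
Position of the strongest optimal summit at each of the 14 bound members relative to its nearest own TSS (bp, negative upstream) against signal (log axis, no stated unit), coloured by role. Of the 14 summits 12 lie upstream, with CycT (132 bp) and Dp (463 bp) on the downstream side.

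The position of the summits at bound members was close to that at all bound genes. Their strongest summits lay upstream of the nearest own start in 12 of 14, against 3210 of 3658 bound genes. The median position was −133.5 bp, against −141 bp for all bound genes. A divergent protein-coding neighbour, one that starts within 500 bp upstream on the other strand, was present at 16 members (35.6%), against 27.3% of all genes. Of these 16 members 8 were bound (50%), and of the other 29 members 6 were bound (20.7%). Among all protein-coding genes 53.9% of those with a divergent neighbour were bound, and 15.8% of the rest. Of the licensing genes, the divergent ones were bound at 4 of 6 and the rest at 1 of 9. That 1 is Mcm2, whose peak also lies within 500 bp of the RPA1 start on the other strand. RPA1 does not count as its divergent neighbour because the 2 starts are more than 500 bp apart. The part that divergent neighbours play in the counts was not tested.

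The summit windows were rich in A and T, and the words sought in them were rare. The 101 bp centred on the strongest summit had a median GC content of 31.2% at the 14 bound members (range 19.8 to 41.6). The median was 33.7% at all 2983 optimal summits within 500 bp of a protein-coding start, and 38.6% in windows of the same length centred 100 bp upstream of 19276 protein-coding starts. The words were sought on both strands. The DNA replication-related element (DRE), TATCGATA, is known from the promoters of fly replication genes such as PCNA. It was found at 1 of the 14 (7.14%), CycY, against 4.36% of the optimal summits and 2.27% of the promoter windows.

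The E2F site, written as TTTCCCGC, TTTGGCGC, TTTCGCGC or TTTGCCGC, was found at 1 of the 14 as well, dpa, against 1.61% of the optimal summits and 2.52% of the promoter windows. GAGAG, the core bound by GAGA factor, was found at none of the 14, and neither were GGTCACAC, the core bound by M1BP, or TGCGGATG. In the optimal summits those words were present in 8.28%, 2.25% and 1.01%, and in the promoter windows in 15.9%, 1.23% and 0.213%. Within 100 bp of the summit (201 bp), the DRE was found at 2 of the 14 (14.3%), with Cdk7 added, against 7.91% of the optimal summits and 6.20% of the promoter windows. The E2F site was found there at 2 (14.3%), with dup added, against 3.12% and 4.69%, and GGTCACAC at 1, CycB (7.14%), against 4.89% and 3.33%. With 14 windows, a word in up to 23.2% of such windows can go unseen (exact 95% interval). Each word was sought on its own, so overlapping words would each count, and TGCGGATG was taken up because earlier results of these data showed it. No match says only that these letters are not in the window.

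The windows of 7 members are printed to show these summits, chosen after their values were seen: Mcm2, Mcm5 and Mcm6 of the helicase, the 2 kinase genes of highest signal, the strong intronic peak of CycE and the DRE at CycY. Each is the 101 bp centred on the summit from the RefSeq genome of Release 6 (dm6), 5′ to 3′ on the strand of the named gene, with capitals for a listed word. None of the 7 summits falls in an annotated exon.
Mcm2 (3R, 8264819 to 8264919, plus): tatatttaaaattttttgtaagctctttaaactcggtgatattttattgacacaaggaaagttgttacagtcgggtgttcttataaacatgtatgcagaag
Mcm5 (3R, 10788322 to 10788422, plus): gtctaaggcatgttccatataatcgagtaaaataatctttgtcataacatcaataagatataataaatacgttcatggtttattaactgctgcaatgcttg
Mcm6 (X, 6674242 to 6674342, plus): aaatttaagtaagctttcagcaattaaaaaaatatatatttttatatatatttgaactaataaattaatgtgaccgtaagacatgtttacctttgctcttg
Cdk1 (2L, 10386399 to 10386499, minus): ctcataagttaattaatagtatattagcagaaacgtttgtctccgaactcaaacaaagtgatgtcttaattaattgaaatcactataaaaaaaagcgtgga
Cdk12 (3L, 21516057 to 21516157, plus): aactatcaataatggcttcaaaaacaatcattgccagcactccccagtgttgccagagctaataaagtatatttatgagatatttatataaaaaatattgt
CycE (2L, 15747081 to 15747181, minus): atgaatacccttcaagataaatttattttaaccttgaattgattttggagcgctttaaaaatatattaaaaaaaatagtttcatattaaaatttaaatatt
CycY (2L, 11813955 to 11814055, minus): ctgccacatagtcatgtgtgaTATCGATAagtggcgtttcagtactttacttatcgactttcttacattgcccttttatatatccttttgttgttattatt

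The GC content of these windows was 29.7% at Mcm2, Mcm5 and Cdk12, 28.7% at Cdk1, 21.8% at Mcm6, 17.8% at CycE and 33.7% at CycY. The DRE at CycY lay 25.5 bp from the summit, centre to centre.

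Other genes of the same processes were counted in the same way. A list of 75 matched genes outside the members was set up by process, and 35 of them were bound (46.7%; exact 95% interval 35.1 to 58.6), against 26.2% of all protein-coding genes. For 29 of the 75 the start was bound in every restricted replicate list, against 20.4% of all genes. Divergent neighbours were frequent in this list, at 41 of 75 genes (54.7%) against 27.3% of all genes, and 24 of those 41 were bound, against 11 of the other 34. Over all protein-coding genes, 53.9% of those with a divergent neighbour were bound and 15.8% of the rest. No test was run on these counts, and the part of the neighbours was not tested.

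Genes for protein degradation and checkpoints were bound at 14 of 22 (63.6%; interval 40.7 to 82.8), against 26.2% of all protein-coding genes. A divergent neighbour was present at 12 of the 22, of which 9 were bound, and of the other 10 genes 5 were bound. At fzy, Cul1, slmb, lok, mei-41 and tefu the summit lies nearer to another gene's start. This set too was chosen with earlier results of these data known. The bound ones include fzy, fzr and Cdc16 of the anaphase-promoting complex pathway, and the checkpoint kinase genes mei-41, tefu, lok and grp. The unbound ones are cort, Cdc23, ida, APC7, mr, Cul4, pic and l(2)dtl, several of them of that same pathway. Of these, cort, Cdc23 and APC7 had no region near a start in the pooled or any replicate list. APC7 did hold an optimal summit inside the gene. Genes of the helicase, the polymerases and the fork were bound at 11 of 32 (34.4%; interval 18.6 to 53.2). Mitotic kinases and regulators were bound at 6 of 13 (46.2%; interval 19.2 to 74.9). Partners of E2F and the dREAM complex were bound at 4 of 8 (50%; interval 15.7 to 84.3), Rbf2 among them (423). Each of these intervals spans the 26.2% of all protein-coding genes. At Rbf2 the summit lies nearer to the start of CG32856. Of the 8 partners, 5 had a divergent neighbour and 4 of those were bound, against 0 of the other 3.

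By signal, the first 8 start regions of these related genes began with PolD2 (1122), a DNA polymerase delta subunit, mei-41 (697), the ATR kinase, and Cdc16 (696). RPA1 (684) follows through the region it shares with Mcm2. Next came Cdc7 (629), the kinase that fires licensed origins, Ctf4 (528), tefu (502), the ATM kinase, and chif (489), the Dbf4 partner of Cdc7. The kinase and its activating subunit, Cdc7 and chif, were thus both bound, with ranks of 914, 855 and 668 for Cdc7 and 1173, 975 and 1305 for chif in replicates 1, 2 and 4. For mei-41, Ctf4 and tefu the summit lies nearer to another gene's start.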

How the data were processed

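Per the file records, the authors deposited dm6 region lists of each replicate and of the libraries pooled, all derived also from 1 shared further file of unstated kind, and the optimal list left by their IDR step. The deposited signal value of each region has no stated scale, and it was used to rank, describe and plot regions within a list, never to compare lists. The peak caller is not given in the sources used here. The optimal list was identical to the 5862 pooled regions of highest signal. Per the labels, chromatin was sonicated to 200 to 800 bp. The dm3 lists were not used, and no read counts are in the files.

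Summits were placed on Ensembl release 115 (BDGP6, transposable elements left out), and sequences were read from the RefSeq Release 6 genome (dm6), whose arm lengths hold every region used. Intervals are exact (Clopper-Pearson) at 95%. Overlap required 1 bp. Bound members are all named, with neighbours at the stronger ones and the 8 strongest related genes. Members and gene lists were chosen with earlier results of these data known. Of the related symbols, Mcm8 matched no gene, and 4 matched through a synonym. The 3 replicates are labelled biological. The counting was tested on simulated summits. Alternatives changed the distance, the list, the overlap, the assignment and the replicates. Calculations used Python 3.11.15, numpy 2.4.6, pandas 2.3.3, scipy 1.17.1 and matplotlib 3.10.9.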

Additional observations from a re-analysis of the deposited data

How the results depend on the processing

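The count of 14 bound members was within 1.5 times of itself under most alternatives and moved under 2. It was 9 among the 2931 optimal peaks of highest signal, where 16.4% of all genes were bound, and 8 with peaks supported in every replicate over 0.5 of their width, where 18.9% were. With 250 bp the same 14 members were bound (31.1%, against 21.4% of all genes). With each summit given to the nearest start only, dup, Mcm5 and Cdk7 were lost and 11 were bound (24.4%, against 19.3% of all genes). The 10 members bound in every restricted replicate list became 18 with 1.5 times as many regions (40% of members, against 24.6% of all genes). When 1 replicate was left out they ranged from 11 to 12 (24.4% to 26.7%, against 21.9% to 22.1% of all genes). Without replicate 4, CycK was added. The 9 members with an inner summit became 4 when summits had to be more than 500 bp from any TSS (8.89% of members, against 7.30% of all genes). The licensing count of 5 was 3 with the nearest start only (20%, against 19.3% of all genes) and 3 with support over 0.5 of the width (20%, against 18.9%). The count of 6 for cyclins and kinases was 3 among those 2931 peaks (15%, against 16.4%), 3 with peaks supported in every replicate (15%, against 20.6%) and 2 with support over 0.5 of the width (10%, against 18.9%). The count of 2 for E2F and Rbf regulators was 1 among those 2931 peaks (25%, against 16.4%) and 4 in the list 1.1 times as long (100%, against 28%), an alternative chosen after seeing the data. Within 100 bp of the summit the DRE and the E2F site were each found at 2 bound members in place of 1, and GGTCACAC at 1 in place of none, while GAGAG and TGCGGATG remained at none. No paired analysis was possible because the series holds a single group. The cause of these changes was not tested. Depth is unknown, so the limit it sets on weak regions cannot be given.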

Other observations

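Among the related genes, 2 bound starts belonged to regions nearer to genes of condensin, the complex that compacts mitotic chromosomes. The region counted for the checkpoint kinase gene lok (signal 392; ranks 1608, 1366 and 1935 in replicates 1, 2 and 4) lies nearer to the start of barr. The region counted for the spindle checkpoint gene Bub3 (410; ranks 1127, 2204 and 1865) lies nearer to that of Cap-D2. Both pairs were noticed after the values were seen, and which gene of a pair the tagged protein is tied to was not tested.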
